A study of Homo sapiens with 6 samples.

Results

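Aldehydes released from oxidised lipids are cleared by a small set of enzymes, and 10 genes of that set were examined in glioblastoma cells treated with the ferroptosis activator RSL3. They are the aldo-keto reductase genes AKR1A1, AKR1B1, AKR1B10, AKR1C1, AKR1C2 and AKR1C3, the aldehyde dehydrogenase genes ALDH1A1, ALDH2 and ALDH3A2, and the alkenal reductase gene PTGR1. The genes were chosen by name and matched to Ensembl identifiers through a table of gene symbols, which gave 10 of 65988 identifiers in the count files. U87MG is an established human glioblastoma line, wild type in genotype by its labels. The control group of 3 libraries was given vehicle, and the other 3 libraries come from cells given 2 µM RSL3, an inhibitor of the lipid peroxidase GPX4. The study's figure legend gives 24 h of treatment. All 6 libraries thus come from 1 line at 1 dose and 1 time, and the labels do not say whether the libraries are separate cultures, so p-values measure only the spread between these libraries. Poly(A) RNA was sequenced and counted per gene without regard to strand, and the total count per library lay between 27813462 and 43306335.

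When polyunsaturated lipids are peroxidised they break down into reactive aldehydes such as hydroxynonenal and acrolein, which bind proteins and DNA. Aldo-keto reductases use NADPH to reduce the carbonyl group to an alcohol, aldehyde dehydrogenases use NAD or NADP to oxidise it to an acid, and PTGR1 uses NADPH to reduce the neighbouring double bond. Several of these genes, among them AKR1B10, AKR1C1 to AKR1C3 and PTGR1, are known targets of the transcription factor NRF2, which binds antioxidant response elements.

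AKR1C1, AKR1C2 and AKR1C3 lie next to each other on chromosome 10 of GRCh38 and share much of their sequence, which bears on how reads can be assigned to them. The coding sequences of AKR1C1 and AKR1C2, from GENCODE v44 transcripts, are 969 bases long each and identical at 950 bases (98.0%). AKR1C3 is identical to AKR1C1 at 886 of the 969 bases (91.4%). The 75 coding bases that differ most between AKR1C1 and AKR1C2 within 1 exon, coding bases 88 to 162, are shown to make visible where a read can be told apart, with capitals for bases that differ from AKR1C1. The stretch lies at chr10:4965917-4965991 (plus strand) for AKR1C1, chr10:5001604-5001678 (minus strand) for AKR1C2 and chr10:5096413-5096487 (plus strand) for AKR1C3.
AKR1C1: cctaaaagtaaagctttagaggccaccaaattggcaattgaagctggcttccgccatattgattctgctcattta
AKR1C2: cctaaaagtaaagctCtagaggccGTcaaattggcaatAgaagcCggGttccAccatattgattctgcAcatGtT
AKR1C3: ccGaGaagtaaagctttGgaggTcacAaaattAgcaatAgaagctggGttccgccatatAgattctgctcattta
In this window AKR1C2 differs from AKR1C1 at 10 bases and AKR1C3 at 9. Counted across exon joins, the longest identical coding run of AKR1C1 and AKR1C2 was 186 bases. The longest run of coding bases within 1 exon that AKR1C1 and AKR1C2 share is 102 bases long (coding bases 681 to 782, chr10:4972584-4972685 in AKR1C1), and AKR1C3 has the same 102 bases. A read inside this run does not tell the 3 genes apart by its own bases, and only its mate could.
Shared run: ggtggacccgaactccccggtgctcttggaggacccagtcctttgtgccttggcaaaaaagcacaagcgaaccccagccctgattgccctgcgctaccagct

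The bases before the transcription start of AKR1C1 and AKR1C2 are shown because these promoters are almost the same while the values of the genes are not. They come from RefSeq windows of GRCh38.p14, which were given for 8 of the 10 genes and not for AKR1B10 and ALDH2. The sequences cover the 250 bases before each start, at chr10:4963165-4963414 (plus strand) for AKR1C1 and chr10:5003858-5004107 (minus strand) for AKR1C2. Capitals mark a match of the antioxidant response element core TGAGNNNGC on the opposite strand in AKR1C1, and the bases that do not align with AKR1C1 in AKR1C2.
AKR1C1 promoter: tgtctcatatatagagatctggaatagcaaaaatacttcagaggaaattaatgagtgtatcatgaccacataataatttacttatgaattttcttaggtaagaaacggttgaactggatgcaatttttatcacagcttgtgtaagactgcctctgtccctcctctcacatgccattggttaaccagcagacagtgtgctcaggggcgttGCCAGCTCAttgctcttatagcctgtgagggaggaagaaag
AKR1C2 promoter: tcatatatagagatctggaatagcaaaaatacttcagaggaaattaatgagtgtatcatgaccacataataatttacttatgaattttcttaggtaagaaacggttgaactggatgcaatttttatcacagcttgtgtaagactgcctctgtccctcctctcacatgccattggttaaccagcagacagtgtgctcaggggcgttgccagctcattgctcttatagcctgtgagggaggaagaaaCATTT
The 2 windows share a run of 245 identical bases, which holds the match. AKR1C3 is more distant, with 69.2% of aligned columns identical to AKR1C1. The windows were searched on both strands from 250 bases before to 50 bases after the start. There, TGAGNNNGC was present in 3 of the 11 windows of these genes (AKR1C1, AKR1C2 and 1 of 2 windows of ALDH3A2) and in 18.3% of all 35116 promoter windows. The other form of the core, TGACNNNGC, was in 0 of the 11 and in 13.3% of all windows, and a site on 1 strand cannot match both forms. The CCAAT box was in 8 of the 11 windows and in 34.6% of all windows. The 11 windows are not all separate, since the 2 windows of AKR1B1 overlap and those of AKR1C1 and AKR1C2 share the 245-base run. A match here describes letters only.

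The share of each gene that a read alone, without its mate, does not tell apart was measured as the share of its 75-base words, the length of 1 read, that also occur elsewhere in the genome or in a transcript of another gene. In the coding part it was 35.5% for AKR1C1, 40.9% for AKR1C2 and 15.3% for AKR1C3. AKR1C1 and AKR1C2 share 299 of the 895 coding words of each (33.4%). For AKR1B10 the share was 12.9%, of which 72 of 874 words are also in AKR1B15. For AKR1A1, AKR1B1, ALDH1A1, ALDH3A2 and PTGR1 no coding word occurred elsewhere. In ALDH2, 609 of 1477 coding words (41.2%) also belong to ENSG00000257767, an annotated gene on the same strand that had 0 counts in all 6 libraries. The study lists no setting of its counting program for reads on exons of 2 genes. The program's default counts such reads for neither gene, so that 0 does not show the gene to be silent. Under that default the ALDH2 count lacks such reads as well. Over the canonical transcript of ALDH2, 8.96% of words occurred elsewhere. Exons of that gene cover 6.99% of the exon bases of ALDH2, and those of ZNF483, on the other strand, cover 2.07% of PTGR1; the other 8 genes share no exon base with another gene.

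RSL3-treated cells held more RNA of AKR1C1, PTGR1, AKR1C3, AKR1B10 and ALDH2 and less of AKR1B1, ALDH3A2 and AKR1A1. Of the 10 genes, 9 passed the filter on low counts, and 5 of these were upregulated and 3 downregulated at an adjusted p under 0.05 in edgeR's quasi-likelihood test. Over all 16105 genes tested, 25.6% were called in the same test, 12.9% upregulated and 12.7% downregulated. Since the genes were named with earlier results of these data known, their count is a description beside that background. AKR1C2 was not called, and ALDH1A1 was not tested for lack of reads. In none of the 9 genes did the groups overlap, with 6 higher and 3 lower in all RSL3 libraries. This held for 38.6% of all genes tested, 19.3% higher and 19.3% lower. In bulk RNA, fewer cells that express a gene and less RNA per cell cannot be told apart. Values are normalized counts, that is counts scaled to the mean library size after TMM adjustment, and log2 fold changes are RSL3 against control.

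**Figure D1:**
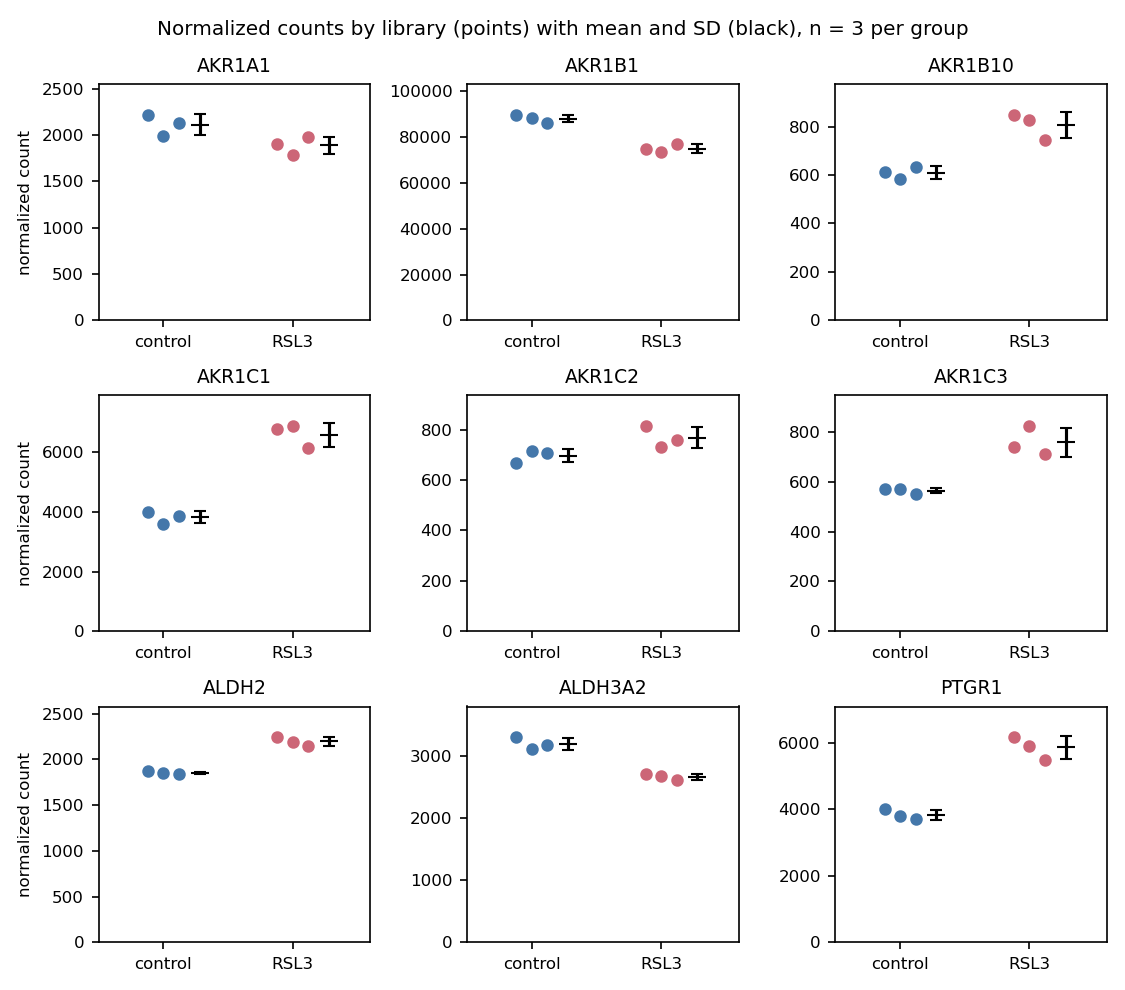
Normalized counts (vertical axes, from 0) of the 9 genes tested in each control library (blue points) and RSL3 library (red points), with mean and SD in black (n = 3 per group). The groups do not overlap in any panel, with the widest gap for its level in AKR1C1, from 3998 in the highest control library to 6118 in the lowest RSL3 library.

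AKR1C1 (ENSG00000187134, chromosome 10, 4963253 to 4983283), a hydroxysteroid dehydrogenase that also reduces lipid aldehydes, changed most among the 9. Its normalized counts were 3998, 3597 and 3871 in control replicates 1 to 3 and 6759, 6861 and 6118 in RSL3 replicates 1 to 3. Every RSL3 library was far above every control library, and the means were 3822 ± 205 (SD, n = 3) and 6579 ± 403 (SD, n = 3). AKR1C1 rose by 0.78 on the log2 scale (SE 0.04), or 1.72-fold (edgeR adjusted p = 4.30e-11). By fold change AKR1C1 was number 173 of the 2082 upregulated genes.

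AKR1C3 (ENSG00000196139, chromosome 10, 5035354 to 5107686), which reduces ketosteroids and prostaglandins as well as aldehydes, had 571, 568 and 552 normalized counts in the control libraries and 739, 822 and 710 in the RSL3 libraries. The control libraries were almost level, and the RSL3 libraries were higher and more spread. AKR1C3 rose by 0.43 on the log2 scale (SE 0.07, edgeR adjusted p = 0.000115).

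AKR1C2 (ENSG00000151632, chromosome 10, 4987775 to 5018031), the closest relative of AKR1C1 and best known for inactivating dihydrotestosterone, had 666, 714 and 706 normalized counts in the control libraries against 813, 732 and 760 in the RSL3 libraries. The groups did not overlap, but the highest control and the lowest RSL3 library were close, at 714 and 732. The log2 fold change of 0.15 had a 95% interval from 0.01 to 0.28 and did not pass the threshold (unadjusted p = 0.0392, edgeR adjusted p = 0.116). It was not called under any of the 14 alternative settings, where the edgeR or DESeq2 adjusted p lay between 0.106 and 0.367.

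The changes of AKR1C1 and AKR1C2 were set side by side because 33.4% of the coding words of each are shared. Over the canonical transcripts, the words shared with the other gene were 16.5% for AKR1C1 and 33.9% for AKR1C2. The ratio of AKR1C1 to AKR1C2 counts was 6.005, 5.04 and 5.48 in control replicates 1 to 3 and 8.31, 9.37 and 8.05 in RSL3 replicates 1 to 3. The mean ratio was 5.51 ± 0.48 in control and 8.58 ± 0.70 in RSL3 libraries (SD, n = 3 each) with no overlap, and the exact permutation test, two-sided, gave p = 0.1, the smallest that 3 against 3 libraries allow. The 95% intervals of the log2 fold changes, 0.69 to 0.87 for AKR1C1 and 0.01 to 0.28 for AKR1C2, did not overlap. AKR1C1 made up 75.2% ± 1.35 of the summed counts of the 3 genes in control and 81.2% ± 0.47 in RSL3 libraries (SD, n = 3 each).

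The sum of the 3 genes does not depend on which of them a read was assigned to. Reads that the aligner marked as having several alignments are absent from all of them. It was 5234, 4879 and 5129 normalized counts in the control libraries and 8312, 8415 and 7588 in the RSL3 libraries. With the 3 rows replaced by their sum in the fit over all genes, the sum rose by 0.67 on the log2 scale (SE 0.04), or 1.59-fold (edgeR adjusted p = 7.76e-11). The pseudogene AKR1C7P (ENSG00000215267), on the same chromosome from 5275173 to 5288470, had 49.6 ± 4.68 (SD, n = 3) normalized counts in control and 114 ± 15.1 (SD, n = 3) in RSL3-treated cells and was also called higher (log2 fold change 1.21, edgeR adjusted p = 6.66e-05). None of its 821 words occurs elsewhere in the genome, but in GENCODE v44 exons of another gene cover 79.2% of its exon bases. A read on those bases does not tell it from that gene.

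**Figure D2:**
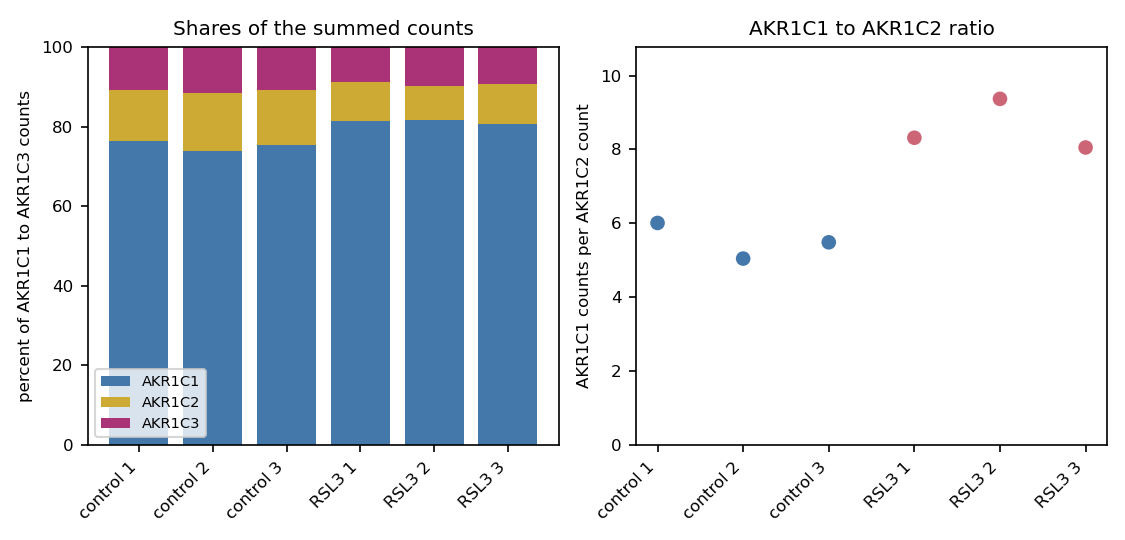
Left, percent of the summed AKR1C1, AKR1C2 and AKR1C3 counts that each gene holds in each library (stacked bars, 0 to 100). Right, AKR1C1 counts per AKR1C2 count in each library, between 5.04 and 6.005 in control (blue) and between 8.05 and 9.37 in RSL3 libraries (red).

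AKR1B1 (ENSG00000085662, chromosome 7, 134442356 to 134459284), aldose reductase, is the first enzyme of the polyol pathway and also reduces lipid aldehydes. It held by far the most reads of the 10 genes, with 89425, 88118 and 86182 normalized counts in control replicates 1 to 3. In RSL3 replicates 1 to 3 it had 74588, 73237 and 76899, all below every control library. AKR1B1 fell by 0.23 on the log2 scale (SE 0.03), to 0.852 of the control level (edgeR adjusted p = 7.47e-07).

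AKR1B10 (ENSG00000198074, chromosome 7, 134527567 to 134541412), a relative of AKR1B1 that reduces retinaldehyde and lipid aldehydes, went the other way. It had 612, 582 and 634 normalized counts in the control libraries and 846, 827 and 746 in the RSL3 libraries. AKR1B10 rose by 0.40 on the log2 scale (SE 0.07, edgeR adjusted p = 0.000165). The ratio of AKR1B1 to AKR1B10 counts lay between 136 and 151 in control and between 88.1 and 103 in RSL3 libraries (exact permutation test, two-sided, p = 0.1, the smallest possible here). The neighbouring AKR1B15, which shares 72 words with AKR1B10, had 131 ± 13.2 normalized counts in control and 129 ± 2.93 in RSL3-treated cells (SD, n = 3 each; edgeR adjusted p = 0.946). The pseudogenes AKR1B10P1 and AKR1B1P2 had few reads, with means between 10.5 and 18.3 normalized counts in either group, and were not called (edgeR adjusted p of 0.893 and 0.828).

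AKR1A1 (ENSG00000117448, chromosome 1, 45550543 to 45570049), the general aldehyde reductase, had 2214, 1993 and 2126 normalized counts in the control libraries and 1903, 1790 and 1978 in the RSL3 libraries. The groups were separated only by the step from 1978 to 1993. AKR1A1 fell by 0.16 on the log2 scale (SE 0.05, edgeR adjusted p = 0.0131). The call was lost without control replicate 1 (-0.13, edgeR adjusted p = 0.0892), without RSL3 replicate 2 (-0.12, edgeR adjusted p = 0.107) and in DESeq2 with 2 surrogate variables (-0.16, adjusted p = 0.0750).

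PTGR1 (ENSG00000106853, chromosome 9, 111549722 to 111599893) encodes prostaglandin reductase, which saturates the double bond of alkenals such as hydroxynonenal and inactivates leukotrienes and prostaglandins. It had 3998, 3802 and 3702 normalized counts in control replicates 1 to 3 and 6167, 5919 and 5495 in RSL3 replicates 1 to 3. The lowest RSL3 library was thus well above the highest control library, and the means were 3834 ± 150 (SD, n = 3) and 5861 ± 340 (SD, n = 3). PTGR1 rose by 0.61 on the log2 scale (SE 0.04), or 1.53-fold (edgeR adjusted p = 5.81e-10). PTGR1 was number 259 of the 2082 upregulated genes, and none of its coding words occurs elsewhere.

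The aldehyde dehydrogenases went in both directions. ALDH3A2 (ENSG00000072210, chromosome 17, 19648136 to 19685760), the fatty aldehyde dehydrogenase of the endoplasmic reticulum, had 3304, 3112 and 3183 normalized counts in control and 2713, 2682 and 2614 in RSL3 libraries. ALDH3A2 fell by 0.26 on the log2 scale (SE 0.04, edgeR adjusted p = 1.44e-05). ALDH2 (ENSG00000111275, chromosome 12, 111766887 to 111817532), the mitochondrial enzyme that oxidises acetaldehyde and hydroxynonenal, had 1868, 1846 and 1842 normalized counts in control and 2241, 2194 and 2150 in RSL3 libraries. Its libraries varied little within each group, and ALDH2 rose by 0.24 on the log2 scale (SE 0.04, edgeR adjusted p = 7.22e-05).

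ALDH1A1 (ENSG00000165092, chromosome 9, 72900671 to 73080442), a cytosolic enzyme that makes retinoic acid and is often used as a marker of stem-like tumour cells, had 0, 1 and 0 reads in the control libraries and 0, 0 and 1 in the RSL3 libraries. A count of 0 allows up to 3 counts, which covers counting error only. In the libraries with 0 reads this is between 0.0693 and 0.101 CPM (counts scaled to library size). No difference was detectable at this depth.

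To compare the genes with each other, counts were divided by exon length and scaled to the same total in every library (TPM). AKR1B1 stood highest, at 3033 ± 20.9 TPM in control and 2609 ± 68.8 TPM in RSL3-treated cells (SD, n = 3 each). PTGR1 followed at 128 ± 3.51 and 198 ± 10.7 TPM, then AKR1A1 at 85.3 ± 4.85 and 77.1 ± 3.86 TPM and AKR1C1 at 55.0 ± 3.26 and 95.5 ± 5.66 TPM. On this scale AKR1C1 stood below AKR1A1 in control and above it in RSL3-treated cells. AKR1B10 had 43.4 ± 2.55 TPM in control, ALDH3A2 26.3 ± 0.85, ALDH2 24.01 ± 0.35, AKR1C3 18.2 ± 0.03 and AKR1C2 14.4 ± 0.68 (SD, n = 3 each). Neighbours in this control order were further apart than the sum of their SDs. The SDs do not cover reads left out because of shared sequence, which TPM does not correct. Of canonical transcript words, 36.1% of AKR1C2, 29.0% of AKR1C1 and 12.3% of AKR1C3 occurred elsewhere, against 0% of AKR1A1. The places of the AKR1C genes in the order are therefore uncertain. With the length of the canonical transcript in place of all exons, the control order changed, with ALDH3A2 at 108 TPM above AKR1C1 at 73.2 TPM and ALDH2 last of the 9 at 24.3 TPM. With that length AKR1C1 stayed below AKR1A1 in RSL3-treated cells too, at 127 against 170.1 TPM, so the order of these 2 genes there depends on the length used. Summed over the 10 genes, the level went from 3427 ± 33.7 TPM in control to 3129 ± 52.3 TPM in RSL3-treated cells (SD, n = 3 each), in which AKR1B1 made up 88.5% and 83.4%. Without AKR1B1 the summed level of the other 9 went from 395 ± 13.1 to 520 ± 18.5 TPM (SD, n = 3 each).

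Against all genes tested, the 9 genes spread over both sides of the distribution of fold changes. Their median log2 fold change was 0.24, and that of all 16105 genes was 0.00. AKR1C1, PTGR1, AKR1C3 and AKR1B10 stood at percentiles 98.2, 96.8, 94.0 and 93.3 of all log2 fold changes. ALDH2 stood at percentile 87.3 and AKR1C2 at 78.0. AKR1A1, AKR1B1 and ALDH3A2 stood at percentiles 23.7, 17.4 and 14.9. For scale, the median log2 fold change was -0.25 over all downregulated genes and 0.23 over all upregulated genes, so AKR1C1, PTGR1, AKR1C3, AKR1B10 and ALDH2 were above the latter and of the downregulated genes ALDH3A2 alone was below the former.

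**Figure D3:**
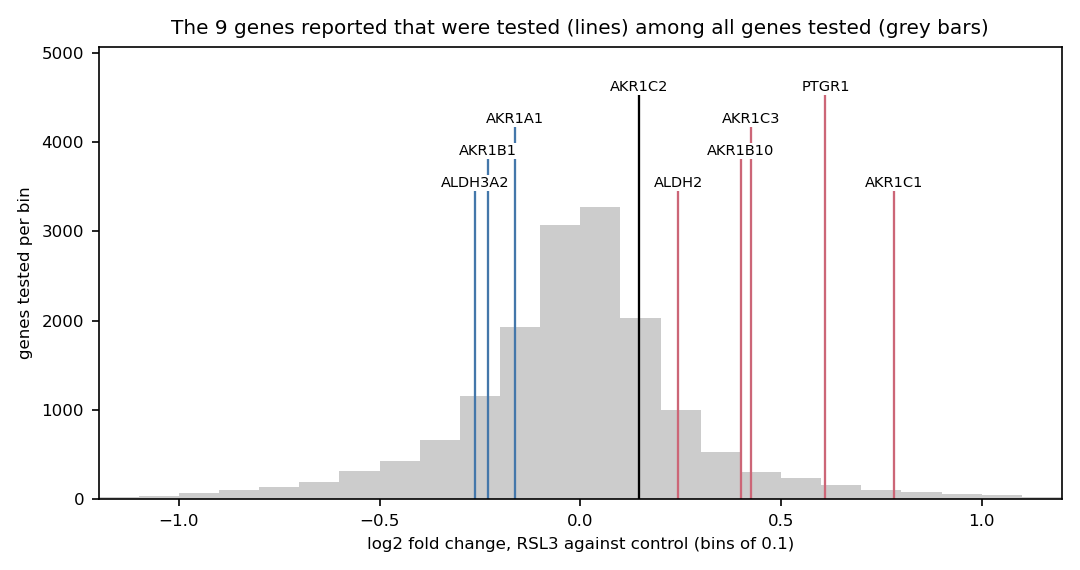
Number of genes tested (vertical axis) per bin of log2 fold change (horizontal axis, grey bars), with the 9 genes as lines, red for upregulated, blue for downregulated and black for AKR1C2, which was not called. AKR1C1 at 0.78 and PTGR1 at 0.61 lie in the thin right tail, and the blue lines lie between -0.26 and -0.16.

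Other genes that clear aldehydes and related carbonyls were taken from 4 lists of 44 genes, of which 37 were tested. Of these, 3 were upregulated and 13 downregulated, beside 12.9% and 12.7% of all genes tested, and 21 were not called; their median log2 fold change was -0.10. The largest change among those named was in GSTA4, a glutathione transferase that conjugates hydroxynonenal. It had 434, 396 and 402 normalized counts in the control libraries and 235, 250 and 258 in the RSL3 libraries (log2 fold change -0.73, edgeR adjusted p = 4.71e-06). In its list of 8 glyoxalase and glutathione-linked genes, 1 was upregulated and 5 downregulated. ADH5, which oxidises the glutathione adduct of formaldehyde, and HAGHL, a relative of glyoxalase II, fell by 0.16 and 0.26 on the log2 scale (edgeR adjusted p of 0.000407 and 0.00395), and the glyoxalase II gene HAGH was called higher (0.17, edgeR adjusted p = 0.0256).

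Among 8 other aldo-keto reductases, 4 were tested and only AKR7A2, which reduces succinic semialdehyde and aflatoxin dialdehyde, was called (log2 fold change -0.25, edgeR adjusted p = 0.000360). Among 16 other aldehyde dehydrogenases, 13 were tested, 1 was upregulated and 3 were downregulated. ALDH1A3, which makes retinoic acid and is a marker of mesenchymal glioblastoma, had 2435 ± 17.3 normalized counts in control and 2774 ± 49.4 in RSL3-treated cells (SD, n = 3 each; log2 fold change 0.19, edgeR adjusted p = 0.000475). ALDH3B1, which oxidises lipid-derived fatty aldehydes, ALDH18A1, of proline synthesis, and ALDH9A1, of carnitine synthesis, had log2 fold changes of -0.24, -0.23 and -0.19, with edgeR adjusted p of 5.00e-06, 0.000741 and 0.000892. ALDH3A1, a close relative of ALDH3A2, did not pass the filter, with 3, 1 and 1 reads in the control and 3, 10 and 3 in the RSL3 libraries.

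Among 12 other carbonyl and enone reductases, all tested, 1 was upregulated and 4 downregulated. CRYZ, a quinone reductase, had a log2 fold change of -0.24 (edgeR adjusted p = 8.61e-05). The prostaglandin reductase gene PTGR3 and the carbonyl reductase gene CBR3 were called lower (-0.18 and -0.64, edgeR adjusted p of 0.0164 and 0.0169) and the aldehyde oxidase AOX1 higher (0.24, edgeR adjusted p = 0.0235). In GENCODE v44, exons of other genes cover 71.1% of those of CBR3, 33.3% of those of ALDH1A3 and 32.9% of those of HAGHL. Reads on those bases, taken without strand, do not tell the genes apart and may be absent from the counts.

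The calls of AOX1, HAGH, PTGR3 and CBR3 were lost under some alternatives. AOX1 was not called without control replicate 1 or 3 or RSL3 replicate 1 or 3 (edgeR adjusted p of 0.0674, 0.0791, 0.0796 and 0.0665). HAGH was not called without control replicate 2 or 3 or RSL3 replicate 1 or 3 (edgeR adjusted p of 0.0656, 0.121, 0.0864 and 0.0683). PTGR3 was not called without control replicate 3 or RSL3 replicate 1 (edgeR adjusted p of 0.114 and 0.0573), nor CBR3 without control replicate 1, RSL3 replicate 1 or RSL3 replicate 2 (edgeR adjusted p of 0.0859, 0.0797 and 0.0550). DESeq2 with 2 surrogate variables called none of the 4 (adjusted p of 0.126, 0.134, 0.116 and 0.0928), and with 1 surrogate variable it did not call AOX1 or HAGH (adjusted p of 0.0515 and 0.0647). Of the 44 genes, 10 were then called lower with 2 surrogate variables and 12 with 1, in place of 13.

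**Figure D4:**
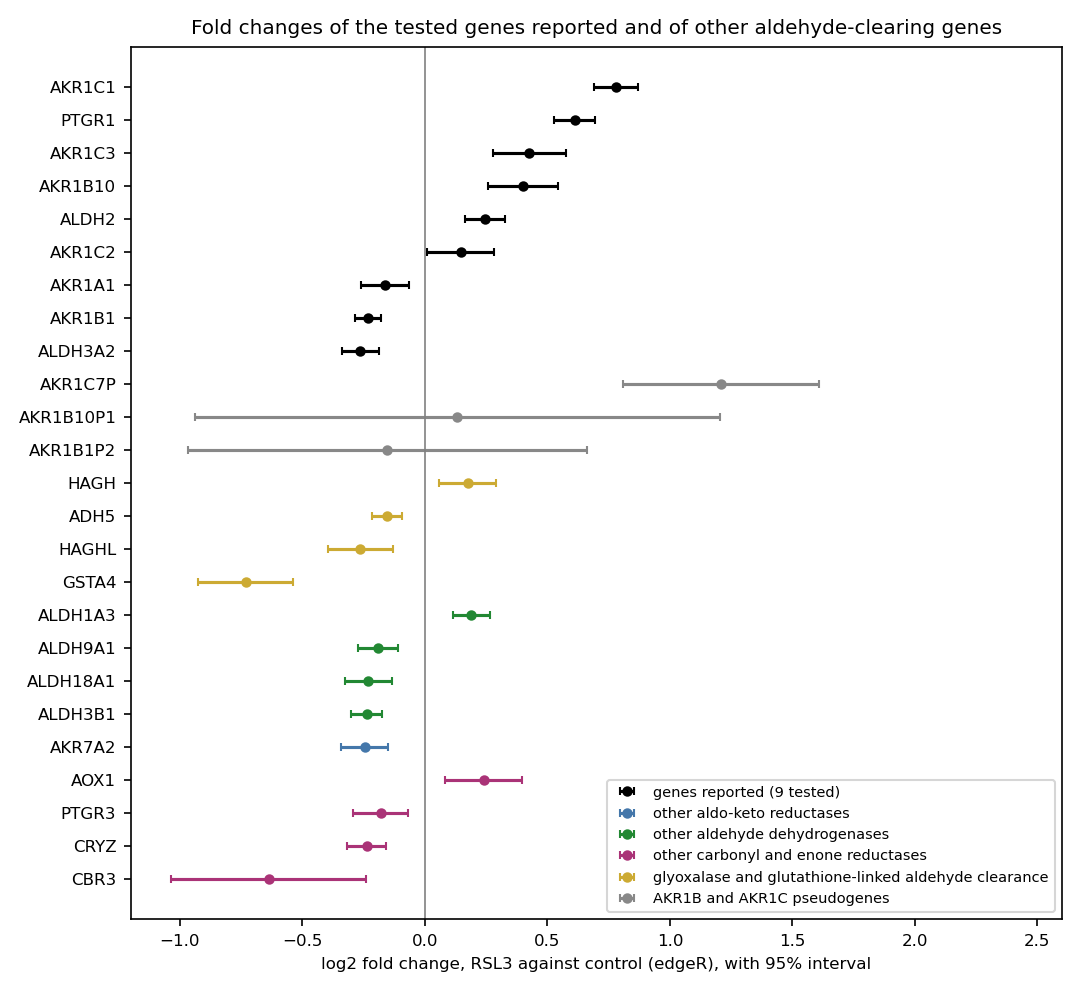
log2 fold change of RSL3 against control (horizontal axis, points) with its 95% interval (bars) for the 9 tested genes (black), for the named genes of the 4 other lists and for the pseudogenes. AKR1C1 and PTGR1 lie to the right at 0.78 and 0.61, GSTA4 to the left at -0.73, and the intervals of AKR1B10P1 and AKR1B1P2 cross 0.

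Of 7 glioma and astroglia markers, 5 reached 1 CPM, while S100B and SOX2 stayed below 0.1, and the list's summed level was 2713 to 2769 CPM in control and 2157 to 2269 in RSL3 libraries, with VIM and CD44 called lower. The other 3 tested markers of that list, GFAP, NES and OLIG2, had log2 fold changes of 0.40, 0.25 and 0.13 and were not called (edgeR adjusted p of 0.0726, 0.203 and 0.347). Of 5 immune cell markers, 0 reached 1 CPM and AIF1 and CD3E were at 0, with a summed level of 0.109 to 0.467 in control and 0.273 to 0.503 in RSL3 libraries. The summed levels of the endothelial, neuronal and oligodendrocyte lists were 4.80 to 6.12, 35.2 to 38.8 and 2.34 to 3.12 CPM in control and 5.36 to 5.58, 38.8 to 40.1 and 4.15 to 4.67 in RSL3 libraries. Transcripts of the mitochondrial genome held 0.918% to 1.26% of counts in control and 0.840% to 0.912% in RSL3 libraries, and the 10 most abundant genes held 5.36% to 5.50% and 5.68% to 5.80%. Of the markers in these 3 lists, KDR, SYT1 and MBP were called higher, with log2 fold changes of 0.54, 0.24 and 0.71, and VWF and SNAP25 lower, with -1.33 and -1.04 (edgeR adjusted p of 0.0103, 0.00214, 0.00185, 0.00111 and 4.84e-05). The glioma, neuronal and oligodendrocyte sums, the mitochondrial share and the share of the most abundant genes did not overlap between the groups, while the immune and endothelial sums did. For the neuronal sum the groups were separated only by the step from 38.76 CPM in control to 38.78 CPM in RSL3 libraries. The part of these sums and shares in the results was not tested.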

How the data were processed

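U87MG cells treated with vehicle or RSL3 were sequenced as 6 libraries. The authors trimmed reads with Trimmomatic 0.36 and fastp, used HISAT2 for alignment to GRCh38.p4 and counted exon reads with HTSeq-count 0.6.1p1 without strand. The deposited values are raw counts per Ensembl gene, without normalization. Whether reads with several alignments were counted, and the annotation release, are not given in the sources used here. The study itself used DESeq2 after surrogate variable analysis.

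Counts were analysed here with edgeR 4.0.16 in R 4.3.3 (filterByExpr at 10 counts, TMM, quasi-likelihood F test, Benjamini-Hochberg adjustment over 16105 genes, threshold 0.05). Standard errors are the log2 fold change divided by the square root of F. The 10 genes and the other lists were chosen with earlier results of these data known. Genes named outside the 10 are tested AKR1B and AKR1C pseudogenes and, in each list, up to 3 called genes per direction, by smallest p; AKR1B15 and ALDH3A1 were added after their values were seen, as were the word search, the ratios and the TPM sums. Coordinates and exons come from GENCODE v44 on GRCh38, whose chromosome coordinates GRCh38.p4 shares. Scripts were tested on simulated data. Alternatives were DESeq2 size factors, total counts, other filters, DESeq2 1.42.0 with 0, 1 or 2 surrogate variables (sva 3.50.0, using genes whose mean normalized count exceeded 1), the replicate number as a block, and each library left out.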

Additional observations from a re-analysis of the deposited data

How the results depend on the processing

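The 5 upregulated genes among the 10 were called higher under all 14 alternatives, and AKR1B1 and ALDH3A2 lower; the call of AKR1A1 was lost under 3. The summed AKR1C1 to AKR1C3 kept its call, with a log2 fold change between 0.64 and 0.72. DESeq2 with 2 surrogate variables called 2516 genes in all, 1275 higher and 1241 lower, where DESeq2 with 0 and 1 surrogate variables called 3696 and 3334 and edgeR called 4123, 2082 and 2041. Of the other aldehyde-clearing genes, 1 was called higher in DESeq2 with 1 or 2 surrogate variables, and between 1 and 3 with each library left out, in place of 3. The log2 fold changes of AKR1B10P1 and AKR1B1P2, never called, lay between -0.21 and 0.50 and between -0.35 and 0.027 with each library left out, which changes their direction. The cause of these shifts was not tested. The labels give control and RSL3 libraries the same replicate numbers, and deviations of same-numbered libraries from their group means correlated at 0.06, 0.11 and 0.18, so the numbers were not taken as pairs. With the replicate number as a block, 4633 genes were called, and the counts among the 10 genes and the other aldehyde-clearing genes were 8 and 16, as without it; every library correlated best with its own number, a hint from the data and not the design. ALDH1A1 had too few reads to be tested.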
